A study of Homo sapiens with 12 samples.

Results

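Proline and glutamate are exchanged through a short chain of mitochondrial enzymes, and GABA drains into the citric acid cycle through another. The 8 transcripts described here encode the core of both routes: PRODH, ALDH4A1, PYCR1, ALDH18A1, OAT, GLUD1, ABAT and ALDH5A1. They were selected by gene symbol from a table of 24528 genes, and all 8 were among the 15021 genes with enough reads to test. PRODH and ABAT were chosen because their deposited values are lower in every knockdown. Their differences from control are therefore given as a description without a test. The other 6 were taken as their neighbours in the routes, with earlier results of these data known.

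The libraries came from MIA PaCa-2 cells, an established human pancreatic carcinoma line, and were sequenced as RNA. Lentiviral short hairpin RNAs (shRNAs) were directed at Musashi-1 (gene MSI1, with a GFP tag in the virus), at Musashi-2 (gene MSI2, with a Tomato Red tag), at both, or carried a scrambled control sequence, and cells were sorted by fluorescence after 72 h of infection. There were 3 libraries in each of 4 groups: Msi1 knockdown, Msi2 knockdown, double knockdown and control shRNA. All groups share 1 cell line, the same culture medium with bovine and horse serum, and a lentiviral infection, and for the control cells the tag and gate are not given in the sources used. The number and sequences of the hairpins are likewise not given, so a difference between groups cannot be assigned to the Musashi genes apart from the hairpins used. Each hairpin also comes with its virus, its tag and the sort on that tag, and these cannot be told apart.

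Proline dehydrogenase (PRODH) oxidises proline to pyrroline-5-carboxylate in the inner mitochondrial membrane, and ALDH4A1 oxidises that product on to glutamate. ALDH18A1 runs the opposite way, reducing glutamate to pyrroline-5-carboxylate, which PYCR1 reduces to proline, and OAT links the same intermediate with ornithine. GLUD1 interconverts glutamate and 2-oxoglutarate, while ABAT removes the amino group of GABA and ALDH5A1 oxidises the resulting succinic semialdehyde to succinate. Proline oxidation feeds electrons to the respiratory chain, PRODH is known as a target of p53, and both proline synthesis and breakdown are studied in carcinoma cells, including pancreatic ones.

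Promoter windows running from 250 bases before an annotated start to 50 bases after it were available for 6 of the 8 genes, as 10 windows (RefSeq, build GRCh38.p14). PRODH and PYCR1 were not among them. The windows of ABAT and ALDH5A1 are shown because both transcripts were lower in all 3 knockdowns, and those of OAT and ALDH18A1 because these did not share that pattern. Capitals mark matches on either strand to CCAAT. They also mark GGGCGG, the core of a GC box. The E-box CACGTG is marked in the same way. The positions are chr16:8674367-8674666 on the plus strand for the first ABAT start, chr6:24494719-24495018 on the plus strand for ALDH5A1, chr10:124418874-124419173 on the minus strand for OAT and chr10:95656662-95656961 on the minus strand for ALDH18A1.
ABAT: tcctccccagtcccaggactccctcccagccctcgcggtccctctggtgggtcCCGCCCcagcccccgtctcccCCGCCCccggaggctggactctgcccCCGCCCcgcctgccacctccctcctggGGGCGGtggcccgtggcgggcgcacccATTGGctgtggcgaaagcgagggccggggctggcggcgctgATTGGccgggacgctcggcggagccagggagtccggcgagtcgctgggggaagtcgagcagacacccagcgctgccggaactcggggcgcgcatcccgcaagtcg
ALDH5A1: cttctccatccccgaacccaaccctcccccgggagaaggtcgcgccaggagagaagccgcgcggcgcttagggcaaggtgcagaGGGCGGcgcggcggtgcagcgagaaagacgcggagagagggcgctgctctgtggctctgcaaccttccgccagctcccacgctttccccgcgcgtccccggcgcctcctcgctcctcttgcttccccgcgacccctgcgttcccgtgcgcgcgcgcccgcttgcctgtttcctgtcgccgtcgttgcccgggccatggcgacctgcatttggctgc
OAT: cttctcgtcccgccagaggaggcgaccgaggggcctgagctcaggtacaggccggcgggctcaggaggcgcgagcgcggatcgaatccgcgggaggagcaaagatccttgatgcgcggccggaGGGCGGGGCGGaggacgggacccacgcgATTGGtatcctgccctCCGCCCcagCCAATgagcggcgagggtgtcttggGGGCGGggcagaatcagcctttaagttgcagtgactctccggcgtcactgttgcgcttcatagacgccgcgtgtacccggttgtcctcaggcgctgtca
ALDH18A1: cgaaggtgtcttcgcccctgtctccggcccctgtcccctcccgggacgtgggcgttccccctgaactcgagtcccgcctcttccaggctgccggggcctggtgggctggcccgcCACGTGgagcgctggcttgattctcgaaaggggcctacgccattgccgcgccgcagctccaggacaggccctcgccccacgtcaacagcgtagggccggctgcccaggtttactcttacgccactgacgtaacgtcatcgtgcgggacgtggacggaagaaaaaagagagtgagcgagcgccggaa

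The first ABAT window held 2 matches to CCAAT and 4 to GGGCGG. Both CCAAT matches were on the reverse strand, beginning at -96 and -55 from the start. OAT also held 2 matches to CCAAT and 4 to GGGCGG, of which 2 share a base. ALDH5A1 held 1 match to GGGCGG, and ALDH18A1 held 1 to CACGTG at -136. No window of the 6 genes held TGANTCA, TGATGNAA (the form bound by ATF4 and C/EBP proteins), TGACGTCA or TATAAA on either strand. Among 35116 human windows of the same length, 34.6% held CCAAT, 45.0% GGGCGG, 7.26% CACGTG, 7.71% TGANTCA, 3.62% TGATGNAA, 1.85% TGACGTCA and 11.5% TATAAA. GC content was 76.3% for the first ABAT window, 71.0% for ALDH5A1, 67.3% for OAT and 67.0% for ALDH18A1. The median over all windows was 58.7%. Windows at ABAT starts 2, 3 and 4 had 52.7%, 53.3% and 43.0%, and none of them held GGGCGG. ABAT has 4 annotated starts and ALDH4A1 has 2, and the per-gene counts do not tell the starts apart.

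The knockdowns were visible in their target transcripts. MSI1 averaged 1.84 ± 0.19 CPM in Msi1-knockdown cells, 6.14 ± 0.82 CPM in Msi2-knockdown cells, 1.71 ± 0.28 CPM in double-knockdown cells and 4.53 ± 0.40 CPM in control libraries (SD, n = 3 each). CPM is counts per 1000000 of the scaled library total. MSI2 averaged 54.0 ± 2.3 CPM in Msi1-knockdown cells, 15.0 ± 2.4 CPM in Msi2-knockdown cells, 11.8 ± 0.62 CPM in double-knockdown cells and 82.7 ± 3.1 CPM in control libraries, so the Msi1-knockdown cells also held less MSI2 RNA. In units of 1000000 estimated counts, totals ran from 26.8 to 38.9 for Msi1-knockdown libraries, 39.7 to 53.01 for Msi2-knockdown libraries, 39.9 to 56.1 for double-knockdown libraries and 10.9 to 35.04 for control libraries. A shared trend among replicates held 54.5% of the variance within groups, and the double-knockdown libraries scored 1.05 to 1.54 on it, above the -1.38 to 0.39 of the other 9. The carcinoma-line markers KRT8, KRT18 and VIM were abundant, with group means of at least 1169 CPM, while CDH1 and EPCAM stayed below 0.7 CPM. Summed endothelial markers were 27.6 to 34.6 CPM in Msi1-knockdown cells, 13.2 to 13.7 CPM in Msi2-knockdown cells, 20.5 to 22.9 CPM in double-knockdown cells and 7.37 to 8.63 CPM in control libraries, carried by CDH5 with KDR, TEK and CLDN5 near 0. Summed blood markers were 37.2 to 44.3 CPM with the Msi1 hairpin, 47.7 to 48.0 CPM with the Msi2 hairpin, 48.8 to 53.0 CPM with both and 18.0 to 20.5 CPM in control libraries, carried by CD68, with CD3E at 0 and PTPRC at 4 counts or fewer. Fibroblast, pancreatic and packaging-cell marker sums spanned 557 to 894, 186 to 272 and 179 to 314 CPM over all libraries. The fibroblast sum was carried by COL1A2 and COL3A1, with DCN, LUM, PDGFRA and PDGFRB at group means of at most 1.38 CPM. SOX9 and KRT19 carried the pancreatic sum, with PRSS1 and CPA1 at 3 counts or fewer. TUBB3 carried the packaging-cell sum, with NEFL, NEFM, INA and STMN2 at 3 counts or fewer. The part of these markers and of the replicate trend in the enzyme results was not tested, except in fits with the trend as a covariate. In such bulk samples, fewer cells expressing a gene and less RNA per cell cannot be told apart. No label states that replicate libraries came from separate cultures, and p-values therefore describe only the spread among these libraries, which may be technical.

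PRODH, the first enzyme of proline oxidation, was selected for being lower in every knockdown, and its levels show by how much. PRODH (gene ID 5625) had 2.77, 2.97 and 3.12 CPM in the Msi1-knockdown libraries, 6.75, 8.13 and 6.61 CPM in Msi2-knockdown cells, 1.97, 1.98 and 2.28 CPM in double-knockdown cells, and 19.6, 21.6 and 18.0 CPM in control libraries. The group means ordered as control, Msi2 knockdown, Msi1 knockdown and double knockdown, and no library of one group overlapped with another group. PRODH was 6.75-fold lower in Msi1-knockdown cells than in control, with a log2 change of -2.76 ± 0.11 (SE). In Msi2-knockdown cells it was 2.77-fold lower, at -1.47 ± 0.10. The double knockdown was 9.61-fold lower, at -3.26 ± 0.11, which left 10.5% of the control mean. Counts behind these levels were 86 to 118 in Msi1-knockdown cells, 269 to 436 in Msi2-knockdown cells, 86 to 105 in double-knockdown cells and 200 to 699 in control libraries. Among 15021 genes ordered from the most lowered, PRODH stood at 5 in Msi1-knockdown cells, 67 in Msi2-knockdown cells and 5 in double-knockdown cells. PRODH2, the hydroxyproline-oxidising relative, had at most 1 count in any library. A pseudogene copy of PRODH exists in the human genome, and how reads were divided between them is not given in the sources used here.

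**Figure D1:**
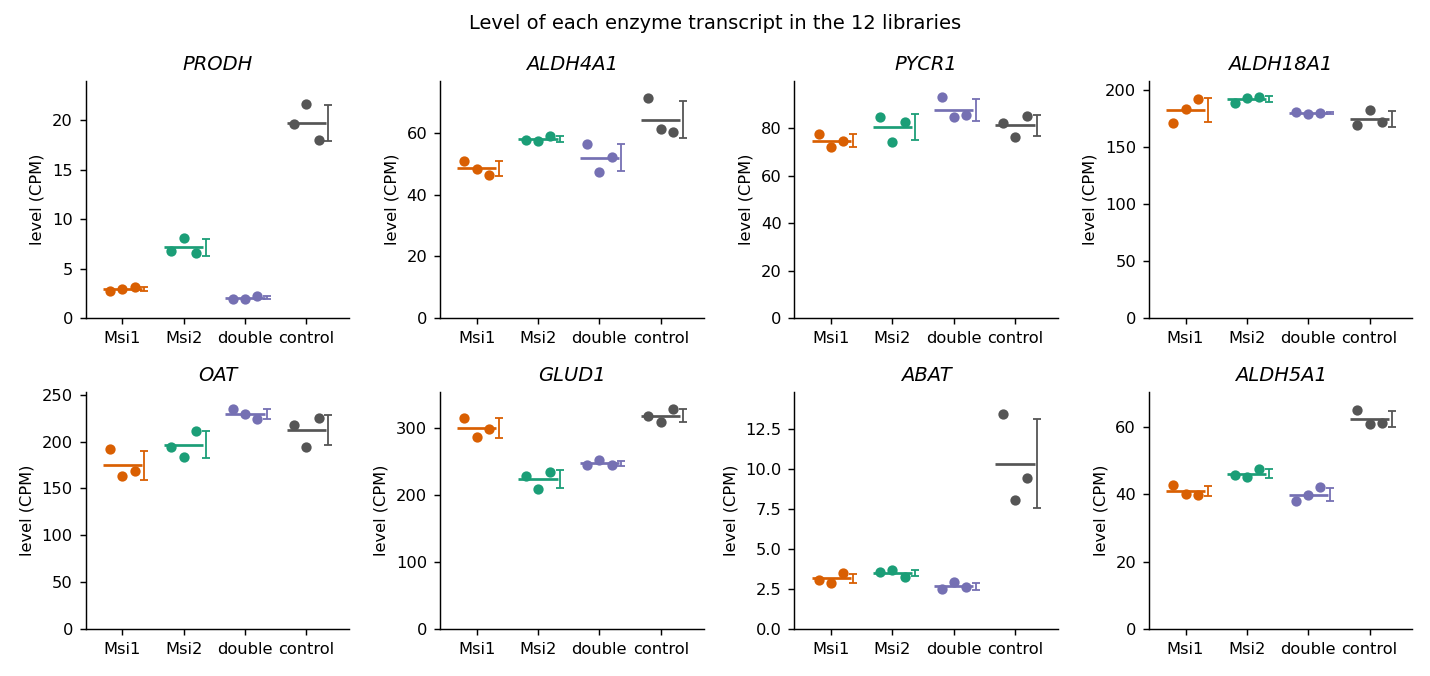
Level of each of the 8 transcripts (CPM, linear axis from 0) in every library, with points for libraries, a line for the group mean and a bar for ± 1 SD (n = 3 each), in the order Msi1 knockdown, Msi2 knockdown, double knockdown and control. PRODH and ABAT are lower in all 9 knockdown libraries than in any control library, while PYCR1 and ALDH18A1 stay within a narrow band.

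ALDH4A1, the next step of proline oxidation, showed the same direction at a far smaller size. ALDH4A1 (8659) had 51.0, 48.4 and 46.2 CPM in Msi1-knockdown cells, 57.5, 57.3 and 59.1 CPM in Msi2-knockdown cells, 56.2, 47.4 and 52.2 CPM in double-knockdown cells, and 71.1, 61.1 and 60.3 CPM in control libraries. All 9 knockdown libraries lay below the lowest control library. By the quasi-likelihood test of edgeR, with p-values adjusted over all 15021 genes (Benjamini-Hochberg), ALDH4A1 fell in Msi1-knockdown cells (log2 change -0.41 ± 0.07, adjusted p = 1.99e-04) and in double-knockdown cells (-0.31 ± 0.07, adjusted p = 0.00151). The Msi2 knockdown did not pass (-0.15 ± 0.07, 95% interval -0.31 to -0.0012, edgeR adjusted p = 0.124). It passed in 1 of 14 alternative settings, the fit with the replicate trend as a covariate (edgeR adjusted p = 0.0427). For 3 libraries against 3 an exact permutation test has a floor of 0.1, so single-gene calls rest on the model fitted to all genes.

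Neither enzyme of proline synthesis passed the test against control in any knockdown. PYCR1 (5831) had 77.6, 72.3 and 74.5 CPM in Msi1-knockdown cells, 84.7, 74.2 and 82.7 CPM in Msi2-knockdown cells, 93.2, 84.6 and 85.5 CPM in double-knockdown cells, and 82.1, 76.4 and 85.2 CPM in control libraries, with overlap in each comparison with control. Its log2 change was -0.12 in Msi1-knockdown cells (95% interval -0.25 to 0.02), -0.01 in Msi2-knockdown cells (-0.15 to 0.13) and 0.12 in double-knockdown cells (-0.02 to 0.25). ALDH18A1 (5832) had 171, 184 and 193 CPM in Msi1-knockdown cells, 189, 193 and 195 CPM in Msi2-knockdown cells, 181, 179.7 and 180.2 CPM in double-knockdown cells, and 170.1, 183 and 172 CPM in control libraries. The Msi2-knockdown libraries all lay above control, yet the log2 change of 0.13 (0.01 to 0.26, edgeR adjusted p = 0.0931) did not pass. It passed in 1 of 14 alternative settings, the fit with the replicate trend as a covariate (edgeR adjusted p = 0.0179). In the other groups the log2 change of ALDH18A1 was 0.06 (-0.06 to 0.18) in Msi1-knockdown cells and 0.04 (-0.08 to 0.17) in double-knockdown cells. These intervals leave room for changes of at most 0.26 on the log2 scale for either enzyme, in either direction.

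OAT, which converts ornithine to the shared intermediate, was lower than control in Msi1-knockdown cells. OAT (4942) had 192, 163 and 169 CPM in Msi1-knockdown cells, 194, 183 and 212 CPM in Msi2-knockdown cells, 235, 229 and 224 CPM in double-knockdown cells, and 218, 195 and 225 CPM in control libraries. The Msi1-knockdown libraries did not overlap with control, and OAT fell there by 0.28 ± 0.07 on the log2 scale (edgeR adjusted p = 0.00505). The Msi2 knockdown (-0.11, 95% interval -0.27 to 0.04) and the double knockdown (0.11, -0.04 to 0.27) overlapped with control and did not pass.

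GLUD1, glutamate dehydrogenase, followed the MSI2 hairpin groups. GLUD1 (2746) had 315, 286 and 298 CPM in Msi1-knockdown cells, 228, 209 and 234 CPM in Msi2-knockdown cells, 245, 251 and 245 CPM in double-knockdown cells, and 318, 308 and 328 CPM in control libraries. Both groups that received the MSI2 hairpin lay below every other library, while the Msi1 knockdown overlapped with control. It fell by 0.51 ± 0.06 in Msi2-knockdown cells (edgeR adjusted p = 6.58e-06) and by 0.36 ± 0.06 in double-knockdown cells (edgeR adjusted p = 9.42e-05), both on the log2 scale. The change in Msi1-knockdown cells was -0.08 (95% interval -0.21 to 0.05). GLUD2, a near-identical intronless copy, was assigned at most 8 counts in any library, and how shared reads were divided between them is not stated.

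In the GABA route, ABAT was lower in all knockdowns at about the same level. ABAT (18) had 3.07, 2.90 and 3.49 CPM in Msi1-knockdown cells, 3.54, 3.67 and 3.27 CPM in Msi2-knockdown cells, 2.50, 2.90 and 2.59 CPM in double-knockdown cells, and 13.4, 8.08 and 9.44 CPM in control libraries. The knockdown libraries lay between 2.50 and 3.67 CPM and never overlapped with control, among which replicate 1 was the highest. The log2 changes were -1.74 ± 0.16 in Msi1-knockdown cells, -1.58 ± 0.15 in Msi2-knockdown cells and -1.98 ± 0.15 in double-knockdown cells, which is 3.35-fold lower for the Msi1, 3.00-fold for the Msi2 and 3.93-fold for the double knockdown. Without control replicate 1 they were -1.45 for the Msi1 knockdown, -1.31 for the Msi2 knockdown and -1.69 for the double knockdown. In rank from the most lowered gene, ABAT stood at 26 in Msi1-knockdown cells, 54 in Msi2-knockdown cells and 50 in double-knockdown cells. Counts were 96 to 115 in Msi1-knockdown cells, 141 to 197 in Msi2-knockdown cells, 100 to 133 in double-knockdown cells and 105 to 479 in control libraries.

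ALDH5A1, the enzyme after ABAT, passed the test in every knockdown. ALDH5A1 (7915) had 42.8, 40.3 and 39.9 CPM in Msi1-knockdown cells, 45.8, 45.1 and 47.5 CPM in Msi2-knockdown cells, 38.1, 39.7 and 42.1 CPM in double-knockdown cells, and 65.2, 60.9 and 61.2 CPM in control libraries. No knockdown library came above 47.5 CPM and no control library below 60.9 CPM. By edgeR it fell by 0.61 ± 0.06 in Msi1-knockdown cells (adjusted p = 2.05e-07), by 0.44 ± 0.06 in Msi2-knockdown cells (adjusted p = 1.90e-05) and by 0.65 ± 0.06 in double-knockdown cells (adjusted p = 7.67e-08), all on the log2 scale. From the most lowered gene it ranked 809 in Msi1-knockdown cells, 1297 in Msi2-knockdown cells and 1644 in double-knockdown cells, far behind ABAT.

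Against control, the 6 enzymes other than PRODH and ABAT therefore gave 3 lower and 0 higher calls in Msi1-knockdown cells, where 20.9% of all tested genes were lower and 18.5% higher. In Msi2-knockdown cells 2 were lower and 0 higher, against 13.6% lower and 16.7% higher over all genes. In double-knockdown cells 3 were lower and 0 higher, with 25.3% lower and 26.6% higher as background. The median log2 change of the 6 was -0.20 in Msi1-knockdown cells, -0.13 in Msi2-knockdown cells and -0.13 in double-knockdown cells, beside -0.0018 for the Msi1, -0.0021 for the Msi2 and -0.015 for the double knockdown over all tested genes. The 3 comparisons share their control libraries, so they are not independent of one another. The 6 enzymes were chosen with earlier results of these data known, so their counts do not come from a blind choice.

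**Figure D2:**
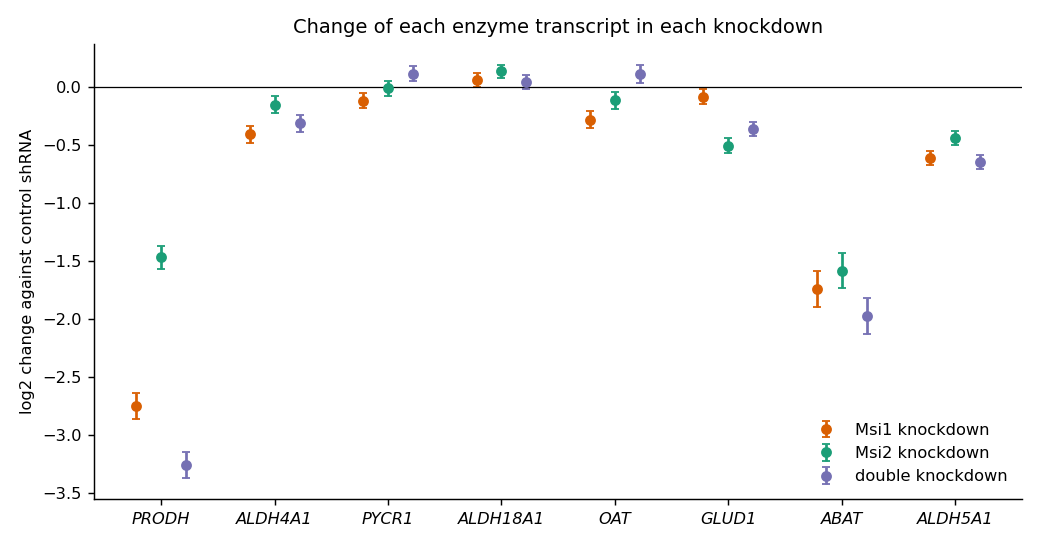
Log2 change of each enzyme against control shRNA (points, with bars for ± 1 SE) in the Msi1, Msi2 and double knockdowns. PRODH reaches -3.26 and ABAT -1.98, while the other 6 lie between -0.65 and 0.13.

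Within control cells, levels per kilobase were lowest for PRODH and ABAT. Dividing CPM by the longest annotated transcript gave 4.16 ± 0.39 CPM per kb for PRODH and 1.85 ± 0.50 CPM per kb for ABAT (SD, n = 3). ALDH5A1 followed at 11.9 ± 0.45, ALDH4A1 at 19.1 ± 1.8, PYCR1 at 42.7 ± 2.3 and ALDH18A1 at 52.2 ± 2.0 CPM per kb. OAT at 103.8 ± 7.9 and GLUD1 at 104.5 ± 3.3 CPM per kb did not differ beyond their spread. Their order separated in the other groups, with GLUD1 at 98.6 ± 4.7 and OAT at 85.2 ± 7.5 CPM per kb in Msi1-knockdown cells, but 81.3 ± 1.2 and 112 ± 2.6 CPM per kb in double-knockdown cells. In double-knockdown cells PRODH was at 0.439 ± 0.037 and ABAT at 0.477 ± 0.038 CPM per kb, but at 1.05 and 1.39 CPM per kb when the median coding transcript length was used. Orders of genes thus depend on the length used, and with the median coding transcript, PYCR1 at 93.6 CPM per kb stood above ALDH18A1 at 52.3 CPM per kb in control cells.

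Ratios within a library do not depend on its scaling. For every 100 counts of ALDH4A1 there were 6.11 ± 0.66 counts of PRODH in Msi1-knockdown cells, 12.4 ± 1.6 in Msi2-knockdown cells, 4.02 ± 0.45 in double-knockdown cells and 30.9 ± 4.0 in control libraries. Counts of ABAT per 100 of ALDH5A1 were 7.70 ± 0.89 in Msi1-knockdown cells, 7.58 ± 0.65 in Msi2-knockdown cells, 6.68 ± 0.58 in double-knockdown cells and 16.4 ± 3.8 in control libraries. Both ratios were lower in all 9 knockdown libraries than in any control library, which follows in part from the selection of PRODH and ABAT and is given as a description. Set against proline synthesis, PRODH had 3.96 ± 0.34 counts per 100 of PYCR1 in Msi1-knockdown cells, 8.97 ± 1.72 in Msi2-knockdown cells, 2.38 ± 0.27 in double-knockdown cells and 24.4 ± 3.6 in control libraries. OAT per 100 counts of ALDH18A1, both sources of pyrroline-5-carboxylate, was 96.0 ± 13.8 in Msi1-knockdown cells, 102 ± 6.9 in Msi2-knockdown cells, 127 ± 2.6 in double-knockdown cells and 122 ± 13.4 in control libraries. That ratio overlapped between Msi1-knockdown and control libraries, with Msi1-knockdown libraries ranging from 87.6 to 112 and control libraries from 106 to 131.

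**Figure D3:**
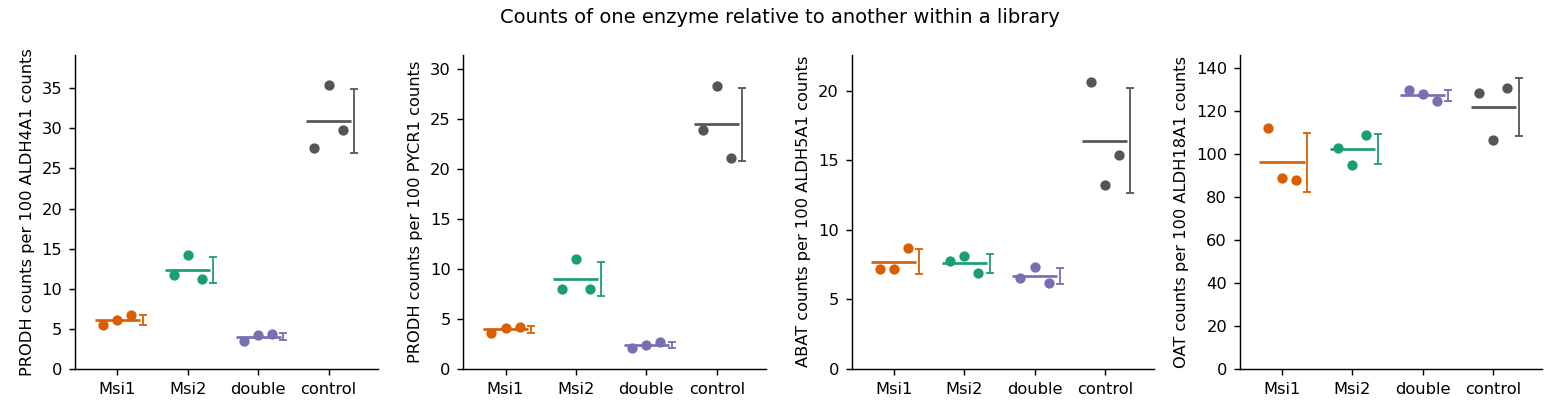
Counts of one enzyme per 100 counts of another in the same library (linear axis from 0), with points for libraries, lines for group means and bars for ± 1 SD (n = 3 each). PRODH per ALDH4A1 averages 30.9 in control and 12.4 or less in each knockdown, and ABAT per ALDH5A1 averages 16.4 in control and 7.70 or less in each knockdown.

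The difference between the single knockdowns does not hold the control means and was not used in the selection, so all 8 enzymes were tested. Control libraries still enter the shared estimate of spread and the scaling. PRODH and ABAT were also chosen for low levels in these same knockdown libraries. Relative to the Msi1 knockdown, the Msi2 knockdown had 2.44-fold more PRODH (log2 difference 1.28 ± 0.11, edgeR adjusted p = 4.45e-08). ALDH4A1 was higher by 0.26 ± 0.07 (edgeR adjusted p = 0.00801) and ALDH5A1 by 0.17 ± 0.06 (edgeR adjusted p = 0.0283), the last of which was lost in 8 of 14 alternative settings. GLUD1 fell by 0.42 ± 0.06 (edgeR adjusted p = 2.32e-05) on the same scale. ABAT did not pass, with a difference of 0.16 (95% interval -0.18 to 0.50), and its libraries overlapped. Of the 8 enzymes, 3 were higher and 1 lower, where 22.3% of all tested genes were higher and 18.9% lower, and the median difference was 0.16 beside -0.0039 over all genes.

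The double knockdown set against the Msi1 knockdown shows what went with the added MSI2 hairpin, together with its virus, tag and sort. PRODH was 1.42-fold lower (log2 difference -0.51 ± 0.13, edgeR adjusted p = 0.00337) and GLUD1 fell by 0.28 ± 0.06 on the log2 scale (edgeR adjusted p = 0.00105). PYCR1 was higher by 0.23 ± 0.07 (edgeR adjusted p = 0.00565) and OAT by 0.40 ± 0.07 (edgeR adjusted p = 2.25e-04). ABAT at -0.23 (95% interval -0.59 to 0.12) and ALDH5A1 at -0.04 (-0.16 to 0.09) did not pass. Calls were 2 higher and 2 lower of 8, with 29.9% of genes higher and 26.2% lower as background, and the median was -0.03 beside 0.0010 over all genes. With the trend shared among replicates as a covariate, only GLUD1 of the 4 still passed (-0.48, edgeR adjusted p = 1.02e-04), whereas PRODH was at -0.07 (edgeR adjusted p = 0.898), OAT at 0.04 (0.852) and PYCR1 at -0.00445 (0.989). Since every double-knockdown library scored highest on that trend, the trend and the double knockdown cannot be told apart.

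Against the Msi2 knockdown, the double knockdown had 3.47-fold less PRODH (log2 difference -1.79 ± 0.11, edgeR adjusted p = 2.51e-09), and this value was -1.47 (edgeR adjusted p = 2.65e-09) with the trend as a covariate. ALDH5A1 fell by 0.21 ± 0.06 (edgeR adjusted p = 0.00757), a call lost when libraries were thinned to equal depth (adjusted p = 0.183). OAT rose by 0.23 ± 0.07 (edgeR adjusted p = 0.0173) but was at -0.03 (adjusted p = 0.775) with the trend as a covariate. ABAT was lower in each double-knockdown library than in any Msi2-knockdown library, yet its difference of -0.39 ± 0.16 (95% interval -0.73 to -0.06, edgeR adjusted p = 0.0523) did not pass. That call rests on the settings: it passed in 5 of 14 alternatives, and over all 14 the difference ran from -0.54 to -0.07 and edgeR or DESeq2 adjusted p from 0.0173 to 0.842. Calls were 1 higher and 2 lower of 8, where 22.7% of all tested genes were higher and 22.5% lower, with a median of -0.13 beside -0.023 over all genes.

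Whether the double knockdown equalled the sum of the single ones was measured as the double log2 change minus both single log2 changes. For PRODH the single changes summed to -4.23 while the double knockdown gave -3.26, a difference of 0.96 ± 0.16. ABAT had a sum of -3.33 and a double change of -1.98, a difference of 1.35 ± 0.23. These are descriptions, since both genes were selected on the changes that enter them. Of the 6 others, OAT exceeded its sum by 0.51 ± 0.10 (edgeR adjusted p = 0.00117), ALDH5A1 by 0.40 ± 0.09 (0.00152), PYCR1 by 0.24 ± 0.09 (0.0451) and GLUD1 by 0.23 ± 0.09 (0.0473). ALDH4A1 at 0.25 (95% interval 0.04 to 0.47) and ALDH18A1 at -0.15 (-0.33 to 0.02) did not pass, though ALDH4A1 passed in 5 of 19 alternatives. The 4 calls above the sum and 0 below stand beside 21.3% of all genes above and 19.1% below, with medians of 0.25 for the 6 enzymes and 0.0082 for all genes. None of the 4 passed with the replicate trend as a covariate, under which edgeR adjusted p ran from 0.146 for ALDH5A1 to 0.992 for GLUD1, and the calls of PYCR1 and GLUD1 were lost or turned in 11 and 13 of 19 alternatives.

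**Figure D4:**
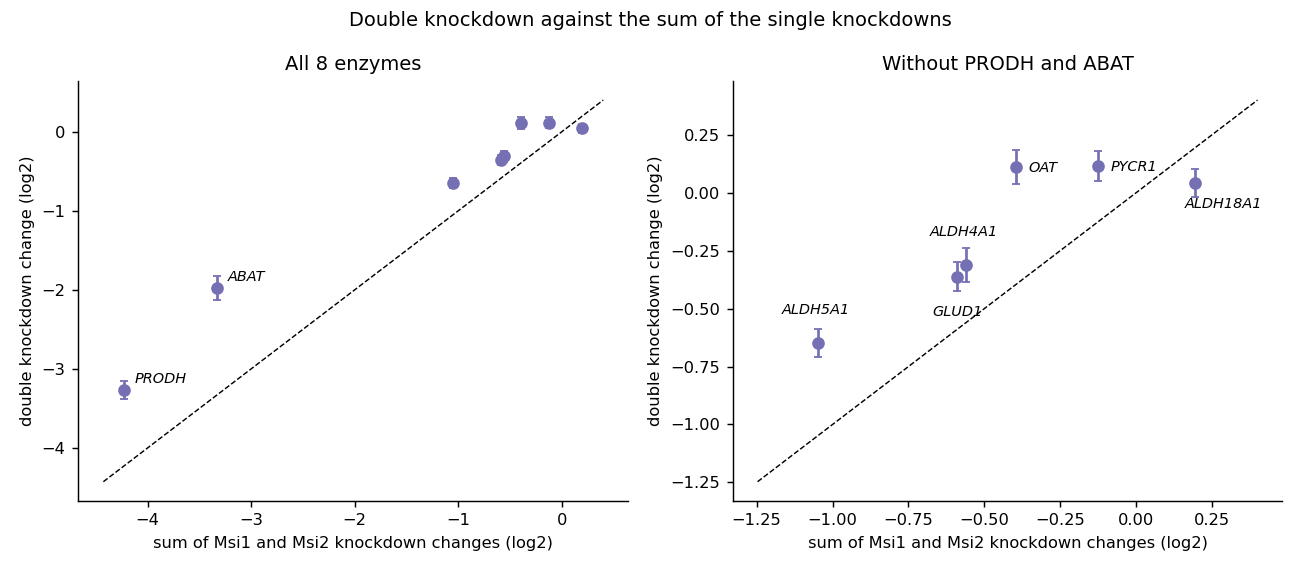
Log2 change in double-knockdown cells (vertical axis, bars ± 1 SE) against the summed log2 changes of the Msi1 and Msi2 knockdowns (horizontal axis), for all 8 enzymes and again without PRODH and ABAT. ALDH18A1 lies below the dashed line of equality and the other points lie above it.

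Gene profiles across the 12 libraries were also compared, as the root mean square difference between log2 levels centred on each gene's own mean. Closest to PRODH were SESN3 (sestrin 3) at 0.49, C7orf60 at 0.52, TP53INP1 at 0.60, MSRB3 at 0.60 and TRIM2 at 0.63, where the median over genes was 1.27. ABAT ranked 9 of 10803 genes by closeness to PRODH, while PRODH ranked 927 by closeness to ABAT. Nearest to ABAT were TP53INP1 at 0.23, SESN3 at 0.25, MSRB3 at 0.26, TRIM2 at 0.28 and KRT80 at 0.28, with a median of 0.79. TP53INP1 averaged 7.25 CPM in Msi1-knockdown cells, 11.6 CPM in Msi2-knockdown cells, 7.45 CPM in double-knockdown cells and 24.4 CPM in control libraries. SESN3 averaged 1.60 CPM with the Msi1 hairpin, 2.56 CPM with the Msi2 hairpin, 1.65 CPM with both and 7.72 CPM in control libraries. KRT80 averaged 46.6 CPM with the Msi1 hairpin, 40.9 CPM with the Msi2 hairpin, 40.5 CPM with both and 102 CPM in control libraries. Among the enzymes themselves the closest pair was PYCR1 and OAT at 0.09, and PRODH and ABAT were 0.65 apart. The differences were not scaled by how much a gene varies, so genes with small changes lie close by this measure. Genes near PRODH and ABAT were found with the measurements that selected those 2, so the resemblance is a description.

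Further genes of these and adjoining routes were grouped in 8 lists of 160 genes, of which 135 could be tested. Each list's calls against control stand beside the shares of all tested genes, 18.5% higher and 20.9% lower for the Msi1 knockdown, 16.7% higher and 13.6% lower for the Msi2 knockdown, and 26.6% higher and 25.3% lower for the double knockdown. Other proline and hydroxyproline enzymes had 1 higher and 3 lower of 7 in Msi1-knockdown cells, 2 higher and 1 lower in Msi2-knockdown cells, and 1 higher and 1 lower in double-knockdown cells. The cytosolic pyrroline-5-carboxylate reductase PYCRL (PYCR3) fell by 0.25 in Msi1-knockdown cells (edgeR adjusted p = 0.0413) and rose by 0.36 in double-knockdown cells (edgeR adjusted p = 0.00209). PEPD, which frees proline from dipeptides, fell by 0.27 ± 0.08 in Msi1-knockdown cells (edgeR adjusted p = 0.0107), and the collagen prolyl hydroxylase subunit P4HA1 rose by 0.30 ± 0.08 in Msi2-knockdown cells (edgeR adjusted p = 0.00695). HOGA1, an enzyme of hydroxyproline breakdown named here after its values were seen, averaged 2.18 ± 0.28 CPM in Msi1-knockdown cells, 1.83 ± 0.48 CPM in Msi2-knockdown cells, 0.914 ± 0.094 CPM in double-knockdown cells and 3.08 ± 0.37 CPM in control libraries. Its log2 change was -0.52 for the Msi1 knockdown, -0.76 for the Msi2 knockdown and -1.77 for the double knockdown. These values are a description without a test, since HOGA1 was named on them. Counts of 1 in 7 are below or near the all-gene shares. The list medians were -0.12, 0.20 and -0.0031 in the Msi1, Msi2 and double knockdowns.

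Among 13 tested glutamate and aspartate enzymes, 2 were higher and 5 lower in Msi1-knockdown cells, 1 higher and 4 lower in Msi2-knockdown cells, and 3 higher and 4 lower in double-knockdown cells. The double-knockdown counts are near the all-gene shares of 26.6% and 25.3%. PPAT, the first committed enzyme of purine synthesis, rose by edgeR for the Msi1 knockdown (log2 change 0.37, adjusted p = 3.12e-04), the Msi2 knockdown (0.21, adjusted p = 0.0270) and the double knockdown (0.62, adjusted p = 6.32e-07). GFPT1, which draws glutamine into hexosamine synthesis, fell by 0.63 ± 0.07 in Msi1-knockdown cells (edgeR adjusted p = 3.49e-07) and by 0.21 ± 0.06 in double-knockdown cells (edgeR adjusted p = 0.0120).

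The 24 genes of GABA synthesis, transport, reception and side routes were mostly scarce, and 14 could be tested. In Msi1-knockdown cells 4 were higher and 1 lower, in Msi2-knockdown cells 2 were higher and 0 lower, and in double-knockdown cells 2 were higher and 2 lower. The Msi2-knockdown count of higher genes is near the all-gene share of 16.7%, and both double-knockdown counts are below 26.6% and 25.3%. Of the enzymes that form GABA from glutamate, GAD2 had at most 3 counts in any library. GAD1, named here after its values were seen, averaged 2.53 ± 0.20 CPM in Msi1-knockdown cells, 2.68 ± 0.31 CPM in Msi2-knockdown cells, 2.14 ± 0.13 CPM in double-knockdown cells and 2.67 ± 0.46 CPM in control libraries, and did not pass. ALDH9A1, which makes GABA from aminobutyraldehyde, averaged 62.4 ± 5.4 CPM in Msi1-knockdown cells, 116 ± 8.3 CPM in Msi2-knockdown cells, 104 ± 0.079 CPM in double-knockdown cells and 111 ± 6.9 CPM in control libraries, with log2 changes of -0.83 ± 0.07 for the Msi1 knockdown (edgeR adjusted p = 2.81e-08), 0.06 for the Msi2 knockdown and -0.09 for the double knockdown (neither of which passed). The taurine transporter SLC6A6 rose in all 3 knockdowns, by 0.46 in Msi1-knockdown cells, 1.09 in Msi2-knockdown cells and 0.41 in double-knockdown cells (edgeR adjusted p of 0.00178, 3.45e-07 and 0.00272).

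Of 18 tested enzymes of ornithine, arginine and polyamines, 12 were higher and 1 lower in double-knockdown cells (median 0.30), where 26.6% of all tested genes were higher and 25.3% lower. There were 3 higher and 3 lower in Msi1-knockdown cells, near or below the all-gene 18.5% and 20.9%, and 6 higher and 1 lower in Msi2-knockdown cells, where the shares were 16.7% and 13.6%. SAT1, which acetylates spermidine and spermine, averaged 166 ± 1.5 CPM in Msi1-knockdown cells, 173 ± 6.0 CPM in Msi2-knockdown cells, 165 ± 3.7 CPM in double-knockdown cells and 102 ± 10.2 CPM in control libraries, and rose by edgeR for the Msi1 (log2 change 0.70, adjusted p = 9.65e-08), Msi2 (0.75, adjusted p = 1.01e-07) and double knockdowns (0.69, adjusted p = 1.00e-07). The mitochondrial arginase ARG2, which makes ornithine, rose by 0.61 ± 0.08 in Msi1-knockdown cells (edgeR adjusted p = 7.22e-06) and by 0.85 ± 0.08 in double-knockdown cells (edgeR adjusted p = 7.67e-08). Spermidine synthase SRM rose by 0.77 ± 0.08 in double-knockdown cells (edgeR adjusted p = 2.37e-07). Among 16 tested carriers of proline, glutamate and relatives, 6 were higher and 2 lower in Msi1-knockdown cells, 2 higher and 4 lower in Msi2-knockdown cells, and 4 higher and 7 lower in double-knockdown cells. The share higher in double-knockdown cells is near the all-gene 26.6%, while the all-gene share higher in Msi1-knockdown cells was 18.5%. The glutamine carrier SLC1A5 rose by edgeR for the Msi1 (log2 change 0.65, adjusted p = 8.70e-07), Msi2 (0.41, adjusted p = 2.29e-04) and double knockdowns (0.46, adjusted p = 3.73e-05). The lysosomal proline and amino acid carrier SLC36A1 rose by 0.83 ± 0.08 in Msi1-knockdown cells and 0.39 ± 0.08 in double-knockdown cells (edgeR adjusted p of 8.85e-08 and 4.16e-04), and the mitochondrial aspartate and glutamate carrier SLC25A13 fell by 0.95 ± 0.06 in Msi2-knockdown cells and by 0.60 ± 0.06 in double-knockdown cells (edgeR adjusted p of 1.66e-09 and 1.88e-07).

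Of 15 other aldehyde dehydrogenases tested, 1 was higher and 7 lower in Msi1-knockdown cells (median -0.33), 0 higher and 6 lower in Msi2-knockdown cells (median -0.15), and 3 higher and 7 lower in double-knockdown cells (median -0.24). The all-gene shares lower were 20.9% for the Msi1, 13.6% for the Msi2 and 25.3% for the double knockdown. ALDH1L2, the mitochondrial formyltetrahydrofolate dehydrogenase, fell by 0.54 in Msi1-knockdown cells, by 1.01 in Msi2-knockdown cells and by 1.19 in double-knockdown cells (edgeR adjusted p of 2.30e-04, 4.11e-07 and 2.30e-08). ALDH6A1, of valine breakdown, fell by edgeR for the Msi1 (log2 change -0.75, adjusted p = 1.15e-07), Msi2 (-0.45, adjusted p = 8.78e-05) and double knockdowns (-0.73, adjusted p = 1.23e-07). For 29 enzymes breaking down branched-chain and other amino acids, calls were 4 higher and 9 lower in Msi1-knockdown cells, 3 higher and 9 lower in Msi2-knockdown cells, and 4 higher and 10 lower in double-knockdown cells, beside the same all-gene shares of 20.9%, 13.6% and 25.3% lower. The glycine decarboxylase GLDC rose by 0.90 in Msi1-knockdown cells and by 1.14 in double-knockdown cells (edgeR adjusted p of 3.64e-06 and 1.25e-07). BCKDHB, a subunit of the branched-chain ketoacid dehydrogenase, fell by edgeR for the Msi1 (log2 change -0.36, adjusted p = 3.07e-04), Msi2 (-0.49, adjusted p = 2.26e-05) and double knockdowns (-0.70, adjusted p = 1.35e-07). The cytosolic transaminase BCAT1 fell by 0.81 in Msi2-knockdown cells and by 0.41 in double-knockdown cells (edgeR adjusted p of 6.01e-07 and 3.97e-04).

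Citric acid cycle enzymes receive the products of both routes. Their list also holds the malic enzymes ME1, ME2 and ME3, pyruvate carboxylase PC and the cytosolic forms ACO1, IDH1 and MDH1. Of 24 tested in this list, 1 was higher and 9 lower in Msi1-knockdown cells (median -0.11). In Msi2-knockdown cells 3 were higher and 1 lower (median -0.02), and in double-knockdown cells 13 were higher and 0 lower (median 0.19). The higher call in Msi1-knockdown cells was ME1, and the lower calls there included ACO1, IDH1, ME2 and PC alongside mitochondrial cycle enzymes. In double-knockdown cells the higher calls included MDH1, ME1 and ME2. Over all genes 20.9% were lower in Msi1-knockdown cells and 26.6% higher in double-knockdown cells. Malic enzyme ME2 fell by 0.24 ± 0.06 in Msi1-knockdown cells (edgeR adjusted p = 0.00423) and rose by 0.26 ± 0.06 in Msi2-knockdown cells and by 0.26 ± 0.06 in double-knockdown cells (edgeR adjusted p of 0.00324 and 0.00158). The cytosolic form ME1 rose by 0.36 in Msi1-knockdown cells and by 0.58 in double-knockdown cells (edgeR adjusted p of 5.46e-04 and 2.12e-06), and the succinyl-CoA ligase subunit SUCLG2 fell by 0.45 in Msi1-knockdown cells (edgeR adjusted p = 1.68e-05). Between the double and the Msi1 knockdown, 20 of the 24 were higher and 0 lower, where 29.9% of all tested genes were higher and 26.2% lower. Over all 8 lists that comparison gave 86 calls among 135 genes, not far from the all-gene share, and 10 with the replicate trend as a covariate.

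**Figure D5:**
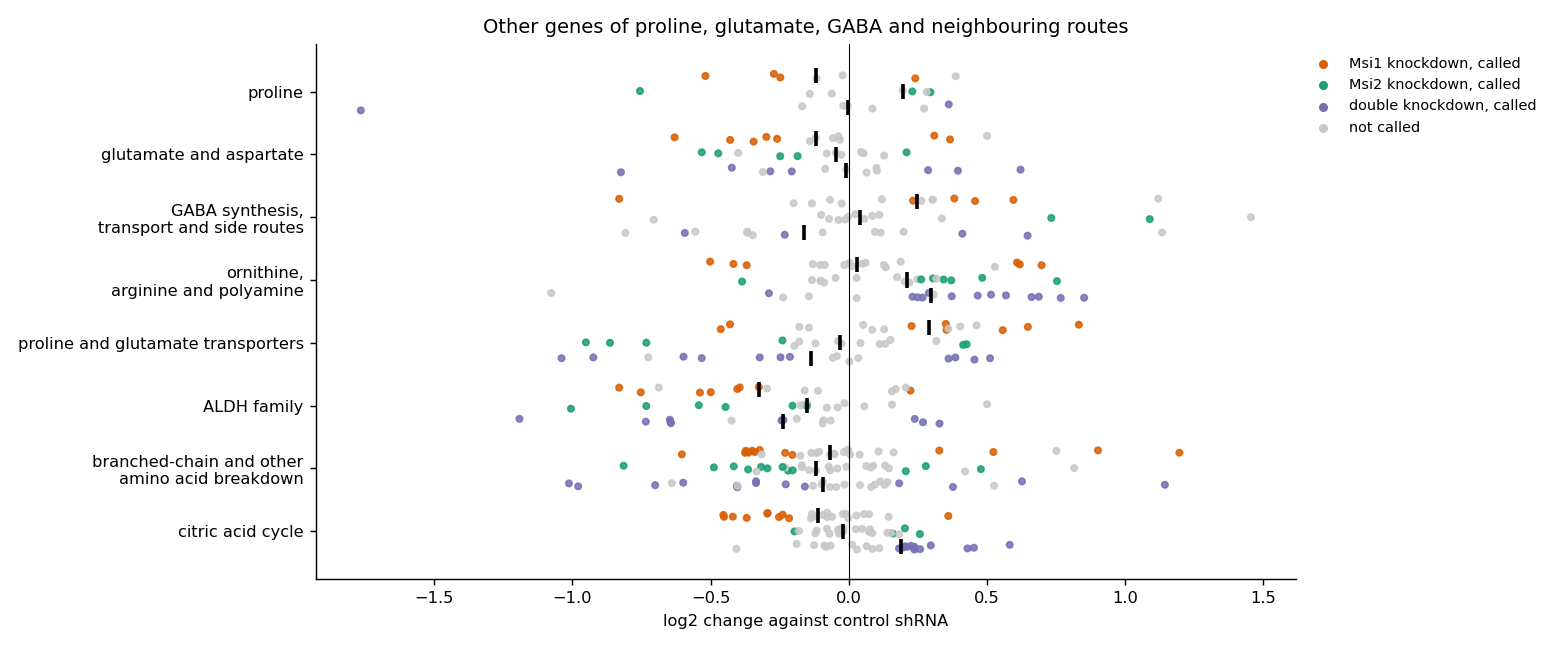
Log2 change against control shRNA of the 135 tested genes in 8 lists (rows), with points for genes, coloured where the edgeR test passed and grey where not, and black ticks for list medians; the Msi1, Msi2 and double knockdowns run from top to bottom in each row. Medians of the ALDH family are -0.33, -0.15 and -0.24, and those of the citric acid cycle list are -0.11, -0.02 and 0.19.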

How the data were processed

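RNA of sorted MIA PaCa-2 cells (200 ng per library) was sequenced in 12 libraries. The deposited values are estimated counts per gene, stored as whole numbers; for the authors' transcript set, summing to genes and use of strand, nothing is given in the sources used. The submitters' processing notes list kallisto 0.42.1, CASAVA 1.4 and hg19. Columns were matched to samples by title, 0 columns were unused and 0 rows lacked a gene name.

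Counts were used as deposited. Genes passing filterByExpr (minimum count 10) were fitted with edgeR 4.0.16 in R 4.3.3, with TMM scaling, 1 model of 4 group means over 12 libraries (8 residual degrees of freedom) and a robust two-sided quasi-likelihood test, adjusted by Benjamini-Hochberg at 0.05 over all 15021 genes. SE is the log2 change divided by the root of F, and intervals cover 95%. Lengths came from GENCODE 29, and promoter windows from RefSeq, whose build differs from that of the counts. Profile closeness used 2 added counts and genes reaching 5 CPM in a group mean.

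Members and lists were chosen with earlier results of these data known. Named list genes are the 3 with the smallest p over the comparisons with control, among genes reaching 5 CPM; HOGA1 and GAD1 are outside the rule, and some genes that the rule picked are left out of the text. Alternatives were DESeq2 1.42.0 and its size factors, no filter or 5 CPM in 3 libraries, only the compared groups, the replicate number, the replicate trend, thinning to 10948191 counts, and leaving out each library. Replicate numbers were checked as pairs: correlations of same-numbered deviations ran from -0.54 to 0.70, and only for the Msi2 knockdown and control were all 3 above 0.1 (0.18, 0.68 and 0.41). Replicate pairs differed by more than sampling noise, with chi-square per degree of freedom from 3.60 to 35.9. The fit was tested before use on simulated independent counts, which lacked the replicate trend and did not cover non-additivity.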

Additional observations from a re-analysis of the deposited data

Results flagged for a closer look

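In 4 of the 6 enzymes outside the selected pair, the double knockdown differed from the sum of the single knockdowns by a test of that difference itself. The double log2 change minus the summed single changes was 0.51 for OAT (edgeR adjusted p = 0.00117), 0.40 for ALDH5A1 (0.00152), 0.24 for PYCR1 (0.0451) and 0.23 for GLUD1 (0.0473). Over all tested genes 21.3% were above and 19.1% below their sum. None of the 4 passed with the replicate trend as a covariate, and the calls of PYCR1 and GLUD1 were lost or turned in 11 and 13 of 19 alternatives. OAT was below control in the Msi1 knockdown and not in the double knockdown, while ALDH5A1 had nearly equal changes in the Msi1 and double knockdowns. The libraries of the double knockdown stand highest on the trend shared among replicates, and the 2 cannot be told apart.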

How the results depend on the processing

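Calls against control of ALDH4A1 (Msi1 and double knockdowns), OAT (Msi1 knockdown), GLUD1 (Msi2 and double knockdowns) and ALDH5A1 (all 3 knockdowns) kept their direction and passed in each of 14 alternatives. Counts of called enzymes moved as follows, and causes were not tested. Non-additivity gave 4 calls, 2 without the low-count filter, 2 with the stricter filter, 0 with the replicate trend and 2 to 5 leaving out a library (2 without replicate 2 or 3 of the Msi1 knockdown, 2 of the Msi2 knockdown, 1 or 3 of the double knockdown, or 1 or 3 of control). The double against the Msi2 knockdown gave 3, 5 with the stricter filter, 6 with the replicate block and 2 to 5 leaving out a library (5 without Msi2-knockdown replicate 3); the block added ALDH4A1, GLUD1 and ABAT (edgeR adjusted p of 0.0322, 0.0407 and 0.0403). The Msi2 against the Msi1 knockdown gave 4, 2 after thinning and 2 to 5 leaving out a library, the lowest without Msi1-knockdown replicate 3. With the replicate trend, the Msi2 knockdown against control gave 4 in place of 2. The added calls were ALDH4A1 and ALDH18A1 (edgeR adjusted p of 0.0427 and 0.0179). The double against the Msi1 knockdown gave 1 in place of 4 with the trend. Under the same covariate the 8 lists gave 10 calls in place of 86 (double against Msi1 knockdown), 35 in place of 64 (double against Msi2 knockdown) and 10 in place of 71 (non-additivity). The trend also turned PYCR1 to -0.00445 (double against Msi1 knockdown) and -0.0204 (non-additivity) and OAT to -0.0305 (double against Msi2 knockdown), none of which passed. In the Msi2 knockdown against control, where all 3 same-number correlations were above 0.1, the replicate block gave 2 enzyme calls as before. No label states that the numbers pair the libraries. OAT in the double against the Msi2 knockdown did not pass without Msi2-knockdown replicate 1 or 2 or double-knockdown replicate 1 or 2 (edgeR adjusted p of 0.0618, 0.106, 0.0663 and 0.0578), nor did PYCR1 in the double against the Msi1 knockdown without Msi1-knockdown replicate 2 (0.0565), or ALDH4A1 in the Msi2 against the Msi1 knockdown without Msi1-knockdown replicate 3 (0.0606). Of all values for single enzymes, 743 kept their side or moved within the spread, 43 lost and 23 gained the call, and 3 reversed. A further 12, all untested values of PRODH and ABAT, moved by more than the spread, and over all alternatives non-additivity ran from 0.66 to 1.45 for PRODH and 1.07 to 1.66 for ABAT. Depth limits PRODH and ABAT most, with counts as low as 86 for PRODH and 96 for ABAT.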
